A study of Mus musculus with 18 samples.

Results

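The keratin genes were followed across mouse intestine after saline, after a carcinogen, and in tumours. Members were all genes whose symbol is Krt followed by a number and at most 1 letter, so that keratin-associated proteins were left out. Of 54 such symbols in the RefSeq table, 42 had a probe on the array, among 18434 genes named there. Of these 42, 40 were measured, that is, their probe was well above background in the sample channel on all 3 arrays of at least 1 group. Over the whole array 26073 genes passed that filter, of which 16799 had a symbol and the rest were known by an array identifier alone. Shares of all genes below are of these 26073. For 32 keratins the probe passed on each of the 18 arrays. The other 8 measured keratins were dimmer: Krt6a, Krt35 and Krt75 passed on 17 arrays, Krt78 on 15, Krt1 on 14, Krt82 on 11, Krt76 on 6 and Krt33a on 5. Krt25 and Krt222 had a probe but were not well above background on all arrays of any group. Krt24, Krt28, Krt39, Krt40, Krt42, Krt72, Krt73, Krt74, Krt77, Krt80, Krt81 and Krt83 matched no probe.

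RNA came from male C57BL/6 mice whose diet held the herb St. John's wort (SJW) or was a control diet. Azoxymethane (AOM), a carcinogen that gives rodents intestinal tumours, or saline was injected. The 6 groups, of 3 arrays each, were tumours of AOM mice on SJW, tumours of AOM mice on the control diet, non-tumour tissue of AOM mice on SJW and on the control diet, and non-tumour tissue of saline mice on SJW and on the control diet. Sample RNA was labelled red (Cy5) and compared on each array with 1 commercial pool of Swiss Webster mouse RNA labelled green (Cy3), made from embryo, thymus, spleen, testicle, ovary, lung, liver, kidney, heart and brain. The pool holds no intestine, and dyes were not swapped. A level below is a log2 ratio of sample over pool for 1 gene, so levels of different genes are not comparable. Doses, ages and the number of tumours or animals behind each RNA are not given in the sources used here. The study's design text calls the 3 arrays of a group biological replicates.

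Keratins build the intermediate filaments of epithelial cells. Each filament pairs an acidic type I keratin with a basic type II keratin, and the choice of pair marks the kind of epithelium. The single-layered lining of the gut uses Krt8 as its type II chain with Krt18, Krt19 and Krt20 as type I chains. Stratified squamous tissues such as skin and oesophagus use Krt5 with Krt14 in basal cells and Krt1 with Krt10 or Krt4 with Krt13 above them, and hair has its own set. RefSeq places 27 keratin symbols on chromosome 11 and 27 on chromosome 15. Krt8 and Krt18, the primary pair of simple epithelia, stood next to each other among the keratins of chromosome 15.

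The start regions of 4 simple-epithelial keratins are shown because 2 of these genes fell in tumours and 2 rose. They were taken from RefSeq on build GRCm38.p6, from 190 bases before the annotated start to 10 after it, 5′ to 3′ on the gene's strand. Krt8 was read from chr15:102004333-102004532 on the minus strand, Krt20 from chr11:99438144-99438343 on the minus strand, Krt7 from chr15:101412213-101412412 on the plus strand and Krt23 from chr11:99493111-99493310 on the minus strand. Capitals mark matches, on either strand, to TATAAA, the core of the TATA box, to GGGCGG, the GC box, or to CCACCC, which Krüppel-like factors bind. Matches may overlap.
Krt8: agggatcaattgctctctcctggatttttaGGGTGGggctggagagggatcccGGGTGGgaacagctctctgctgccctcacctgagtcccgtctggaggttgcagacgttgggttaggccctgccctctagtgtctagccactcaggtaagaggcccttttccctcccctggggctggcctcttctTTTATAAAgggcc
Krt20: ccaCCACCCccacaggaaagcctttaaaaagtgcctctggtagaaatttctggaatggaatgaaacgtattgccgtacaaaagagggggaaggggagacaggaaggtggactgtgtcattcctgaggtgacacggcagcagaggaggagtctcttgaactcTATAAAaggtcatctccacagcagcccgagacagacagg
Krt7: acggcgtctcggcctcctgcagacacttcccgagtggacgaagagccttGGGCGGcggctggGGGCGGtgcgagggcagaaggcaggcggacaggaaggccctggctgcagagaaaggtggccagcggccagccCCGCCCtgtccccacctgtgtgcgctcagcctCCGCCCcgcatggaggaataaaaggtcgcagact
Krt23: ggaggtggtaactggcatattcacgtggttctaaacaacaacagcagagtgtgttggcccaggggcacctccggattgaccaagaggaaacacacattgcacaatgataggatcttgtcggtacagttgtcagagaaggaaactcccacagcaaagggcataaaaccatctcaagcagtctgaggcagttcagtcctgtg
Krt20 held TATAAA with its first base at -29 from the annotated start. In Krt8 the letters spanned the annotated start itself, as 2 overlapping matches on the 2 strands. Krt7 held 4 GC boxes and no TATAAA, and Krt23 held none of the 3 motifs. Of 37 such windows of 36 keratin genes, 16 held TATAAA, against 9.74% of 32851 windows in the table. GGGCGG was in 2 of the 37, against 31.5% of all windows, and CCACCC in 11 of the 37, against 24% of all windows. These are matches of letters, and the keratin genes lie in clusters of related copies, so the windows do not count as independent.

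The arrays differed in brightness by tissue, in part with overlap. The scanner software's quality-control average of red signal over background was 4.86 to 6.55 on the 6 tumour arrays. It was 1.80 to 3.75 on the 12 non-tumour arrays. The median red signal of all sample spots overlapped, at 336.5 to 786.5 on tumour arrays and 133 to 375 on non-tumour arrays. Tumour arrays filled 2 slides scanned on a second day, and non-tumour arrays filled 3 slides scanned on the first, so a difference between tumour and non-tumour tissue cannot be told apart from one between slides or scan days. Each non-tumour slide held 1 array of each non-tumour group. The labels call the tissue small intestine, whereas their extraction text names liver. Cdh17, an intestinal cadherin, averaged 4.71 ± 0.20 in SJW tumours, 5.26 ± 0.96 in control tumours, 4.82 ± 0.32 in SJW tissue after AOM, 5.91 ± 0.75 in control tissue after AOM, 6.28 ± 0.97 in SJW tissue after saline and 5.41 ± 0.87 in control tissue after saline (log2 ratio to pool, SD, n = 3). Alb, which encodes albumin of liver cells, had means of -0.98 to -3.67 in the same groups, below the pool. In SJW tumours its mean of -0.98 had an SD of 2.43, so the arrays there varied widely.

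Krt8, Krt18, Krt19 and Krt20 stood well above the pool on all 18 arrays. Krt7 and Krt23 were near the pool in most non-tumour groups, so that 5 or 6 of the 6 simple keratins had a group mean above the pool, against 5 to 10 of the 17 squamous keratins. The median group mean of the 6 simple keratins was 2.90 in SJW tumours, 2.78 in control tumours, 3.16 in SJW tissue after AOM, 3.41 in control tissue after AOM, 3.20 in SJW tissue after saline and 3.06 in control tissue after saline. The median of the 17 squamous keratins lay between -0.22 and 0.26 in these groups. The 11 hair shaft keratins had medians of 0.45 to 0.79, and the 4 keratins of the inner root sheath and companion layer of hair had medians of 0.56 to 1.11. The pool holds kidney, lung and embryo, which have epithelia of their own.

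In tumours the simple keratins split. Krt8, Krt19 and Krt20 fell on both diets, Krt18 fell on the control diet alone by the test, and Krt7 and Krt23 rose on both diets. The test was limma on all 18 arrays, with p-values adjusted by Benjamini and Hochberg over all 26073 genes and called at 0.05. Of the 40 keratins, 8 were called on the SJW diet (3 higher, 5 lower), where 24.6% of all genes were called (9.18% higher, 15.4% lower). On the control diet 11 keratins were called (5 higher, 6 lower), where 32.0% of all genes were called (12.7% higher, 19.3% lower). The overall share of keratins called was thus 20.0% and 27.5%, below that of all genes on both diets. Of the 6 simple keratins, 5 were called on the SJW diet and 6 on the control diet. Of the 17 squamous keratins, 2 were called on the SJW diet and 4 on the control diet, and of the 11 hair shaft keratins 0 on either diet. An unadjusted p under 0.05 was found for 4 and 2 of these 11 on the SJW and control diets. Over all genes the shares at that p were 37.6% and 43.0%. Median changes were -0.48 for simple and -0.02 for squamous keratins on the SJW diet, where all genes had -0.065, and -0.68 and -0.02 on the control diet, where all genes had -0.055.

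**Figure D1:**
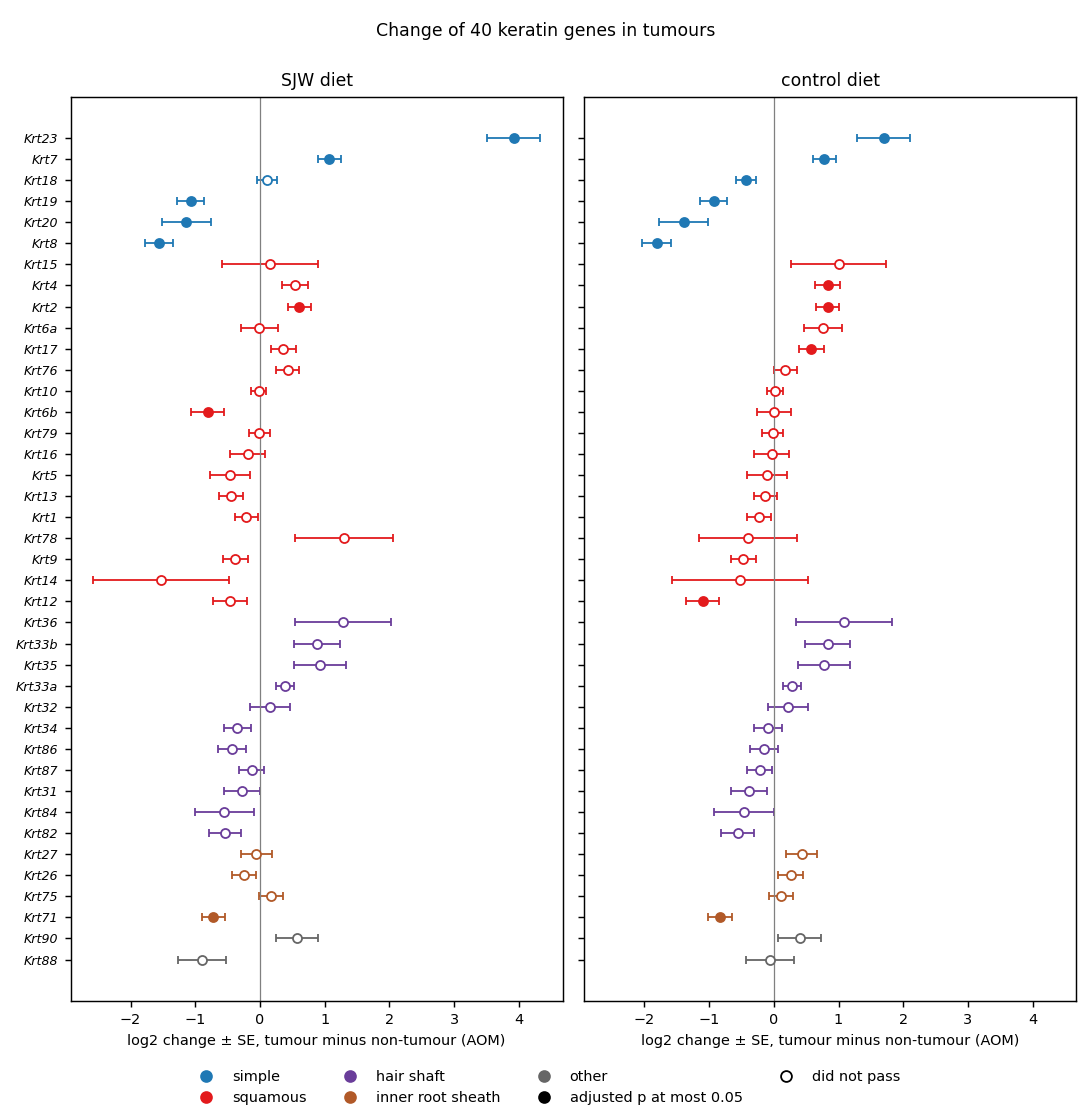
Log2 change ± SE of each measured keratin, tumour minus non-tumour tissue after AOM, on the SJW diet (left) and the control diet (right), ordered by class and by change on the control diet; filled points passed the test. All 6 simple keratins passed on the control diet and 5 on the SJW diet, with Krt23 at one end (3.92 and 1.70) and Krt8 at the other (-1.56 and -1.81).

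Krt8, the type II chain of every simple epithelium, stood at 1.93, 2.30 and 2.16 in SJW tumours, against 3.76, 3.90 and 3.40 in SJW tissue after AOM. In control tumours it stood at 1.83, 1.70 and 2.48, against 3.97, 3.87 and 3.60 in control tissue after AOM. All 6 tumour arrays lay below all 12 non-tumour arrays. The change was -1.56 ± 0.22 on the SJW diet (2.94-fold lower, limma adjusted p = 0.000124) and -1.81 ± 0.22 on the control diet (3.51-fold lower, limma adjusted p = 2.51e-05). A dimmer probe of Krt8 fell by 1.26 ± 0.21 on the SJW diet and by 1.80 ± 0.21 on the control diet.

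Krt18 is the usual partner of Krt8. Its levels were 2.67, 2.51 and 3.01 in SJW tumours, against 2.74, 2.59 and 2.53 in SJW tissue after AOM, and the groups overlapped. In control tumours they were 2.33, 2.61 and 2.80, against 3.01, 3.08 and 2.94 in control tissue after AOM, with no overlap. The change was 0.11 ± 0.15 on the SJW diet (limma adjusted p = 0.622) and -0.43 ± 0.15 on the control diet (1.35-fold lower, limma adjusted p = 0.0437). The control-diet call was lost in 8 of 15 other settings, among them centring arrays on their median (-0.26, limma adjusted p = 0.598), and the difference between the changes of Krt8 and Krt18 was not tested.

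Krt19, a type I keratin found along the whole crypt and villus, stood at 2.57, 3.51 and 3.14 in SJW tumours, against 4.18, 4.19 and 4.06 in SJW tissue after AOM. In control tumours it stood at 3.05, 3.17 and 3.72, against 4.18, 4.32 and 4.24 in control tissue after AOM. As with Krt8, no tumour array reached the lowest non-tumour array. It fell by 1.07 ± 0.21 on the SJW diet (2.10-fold lower, limma adjusted p = 0.00145) and by 0.93 ± 0.21 on the control diet (1.91-fold lower, limma adjusted p = 0.00294). From the red channel alone the decreases were 0.83 and 0.77 and did not pass (adjusted p = 0.0781 and 0.104). With arrays centred on their median the changes were -0.87 and -0.79 and did not pass either (limma adjusted p = 0.0563 and 0.0689).

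Krt20 marks differentiated intestinal cells near the surface. It stood at 2.98, 3.84 and 2.69 in SJW tumours, against 4.33, 4.18 and 4.41 in SJW tissue after AOM, and at 2.64, 2.36 and 3.93 in control tumours, against 4.68, 4.70 and 3.72 in control tissue after AOM. Control tumour 3 and control AOM array 3 overlapped. The change was -1.14 ± 0.38 on the SJW diet (2.20-fold lower, limma adjusted p = 0.0408, lost in 8 of 15 other settings) and -1.39 ± 0.38 on the control diet (2.62-fold lower, limma adjusted p = 0.0119). Its pool channel moved too, although the pool RNA was the same on each array: relative to the array's median, the green signal of Krt20 in tumours was 1.40 lower on the SJW diet and 2.79 lower on the control diet on the log2 scale. The red signal alone, normalized between arrays, gave -2.56 and -4.15, with adjusted p = 5.59e-05 and 8.96e-07. The direction was the same on both scales, while the size depended on the channel used.

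Krt23 and Krt7 went the other way. Krt23, a type I keratin that has been reported in human colon tumours, was at 4.18, 4.21 and 4.36 in SJW tumours, against -0.09, 0.14 and 0.95 in SJW tissue after AOM. In control tumours it was at 3.00, 4.10 and 4.37, against 1.72, 2.79 and 1.86 in control tissue after AOM. It rose by 3.92 ± 0.41 on the SJW diet (15.1-fold, limma adjusted p = 1.14e-05) and by 1.70 ± 0.41 on the control diet (3.25-fold, limma adjusted p = 0.00553). Tumours of both diets reached similar levels, and it was the non-tumour tissue after AOM that stood apart between diets. The difference between the 2 increases was 2.21 ± 0.58, with an unadjusted p of 0.00161 and an adjusted p of 1 over all genes.

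Krt7, the type II keratin of ducts and of transitional epithelium, stood at 0.73, 1.08 and 1.33 in SJW tumours, against -0.05, -0.06 and 0.05 in SJW tissue after AOM. In control tumours it stood at 0.58, 0.79 and 1.20, against -0.04, 0.25 and 0.03 in control tissue after AOM. All 6 tumour arrays lay above all 12 non-tumour arrays. It rose by 1.07 ± 0.18 on the SJW diet (2.10-fold, limma adjusted p = 0.000562) and by 0.78 ± 0.18 on the control diet (1.71-fold, limma adjusted p = 0.00418). A dimmer probe rose by 1.00 ± 0.17 and 0.66 ± 0.17. From the red channel alone the SJW-diet change was 0.51 and did not pass (adjusted p = 0.117).

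**Figure D2:**
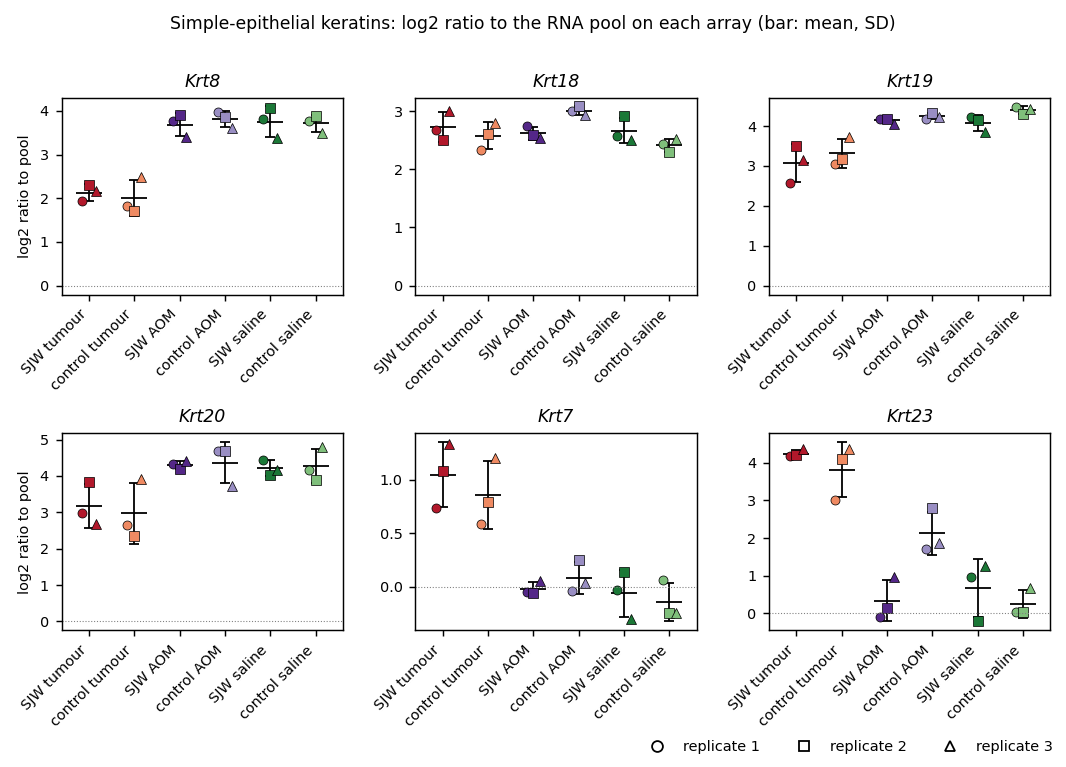
Log2 ratio of sample over pool on each of the 18 arrays for the 6 simple-epithelial keratins; points are arrays, bars the mean and SD of 3. Krt8 and Krt19 are lower on all tumour arrays than on any non-tumour array, Krt7 is higher, and Krt23 is intermediate in control tissue after AOM, at 1.72 to 2.79.

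Other epithelial genes fell in tumours as well. Over all genes 15.4% fell and 9.18% rose on the SJW diet, and 19.3% fell and 12.7% rose on the control diet. Of 15 genes of epithelia in general, 8 fell and 1 rose on the SJW diet, and 9 fell on the control diet, with median changes of -0.58 and -0.86. Their mean level per array was 1.64 to 1.94 in SJW tumours, against 2.18 to 2.29 in SJW tissue after AOM, and 1.62 to 2.04 in control tumours, against 2.35 to 2.62 in control tissue after AOM. Cldn3, which encodes a claudin of tight junctions, fell by 0.92 ± 0.13 and 1.01 ± 0.13 on the SJW and control diets. Of 14 intestinal epithelial genes 11 fell on each diet (medians -1.28 and -1.41), and of 13 smooth muscle genes 9 fell on the SJW diet and 11 on the control diet (medians -1.95 and -2.42). Of 9 stroma genes 4 rose on the SJW diet, and 5 rose and 1 fell on the control diet (medians 0.97 and 0.93). Of 9 exocrine pancreas genes 4 fell on the SJW diet and 1 on the control diet (medians -2.83 and -1.15). Their mean level per array was -1.55 to -1.22 in SJW tumours, against -0.53 to 3.73 in SJW tissue after AOM. The part of these genes in the keratin changes was not tested. Fewer cells of a type and less RNA per cell cannot be told apart in these samples.

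Among the squamous keratins, the pair that marks basal layers differed in spread across arrays, and whether its members moved together was not tested. Krt5, the basal type II chain, lay between -3.20 and -1.49 on all 18 arrays, far below the pool. Krt14, its type I partner, lay between -1.54 and 4.62 and was the keratin with the widest spread inside groups: in control tissue after saline it stood at -1.54, 3.00 and 2.02. Neither passed in tumours against non-tumour tissue, where Krt5 changed by -0.46 ± 0.31 and -0.10 ± 0.31 and Krt14 by -1.53 ± 1.05 and -0.52 ± 1.05 on the SJW and control diets. Krt13, a keratin of mucosal squamous layers, was well above the pool in all groups, with group means of 1.86 in SJW tumours, 2.12 in control tumours and 2.25 to 2.66 in the 4 non-tumour groups. A dimmer Krt13 probe did not share that level, averaging -1.01 in SJW tumours, -0.78 in control tumours, -0.48 in SJW tissue after AOM and -0.57 in control tissue after AOM.

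**Figure D3:**
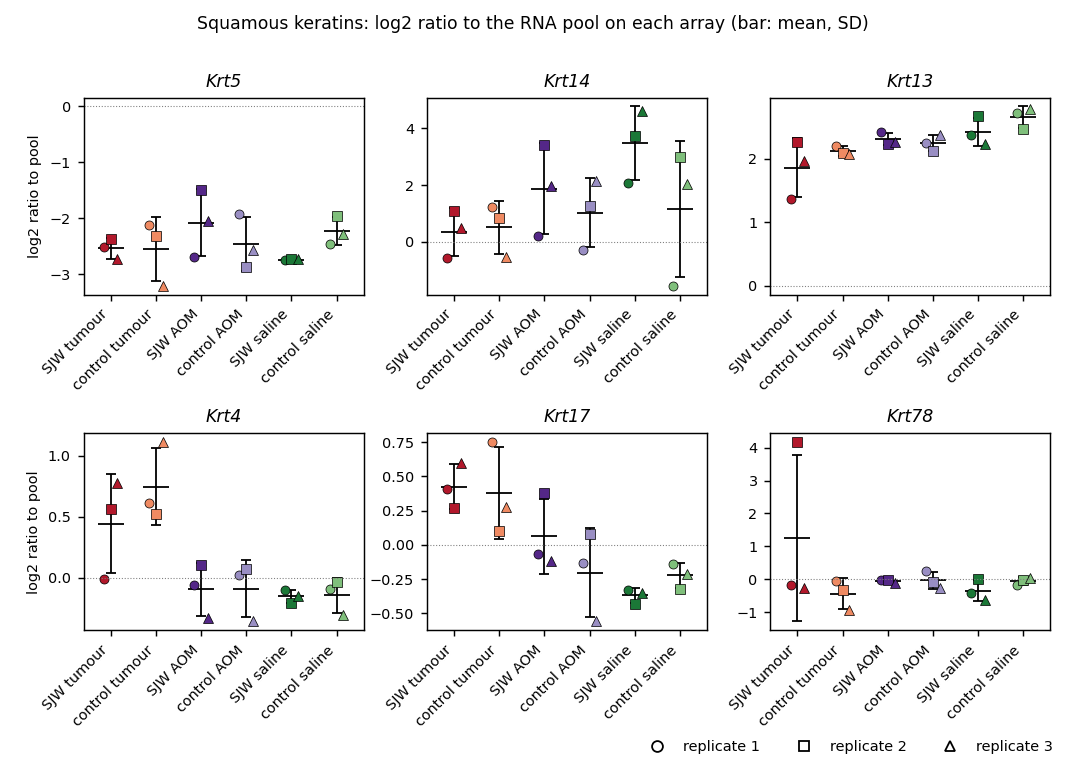
Log2 ratio of sample over pool on each array for 6 squamous keratins, with the mean and SD of 3 arrays. Krt5 stays below the pool on all 18 arrays, Krt14 varies widely inside groups, and Krt78 is high on SJW tumour 2 alone (4.16).

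Among the squamous keratins, the brightest probe of Krt2 passed on both diets. Krt2, a type II keratin of the upper epidermis, stood at 0.04, 0.62 and 0.19 in SJW tumours, against -0.39, -0.39 and -0.20 in SJW tissue after AOM, and at 0.40, 0.14 and 0.40 in control tumours, against -0.35, -0.27 and -0.93 in control tissue after AOM. It rose by 0.61 ± 0.18 (1.53-fold, limma adjusted p = 0.0231) and 0.83 ± 0.18 (1.78-fold, limma adjusted p = 0.00285) on the SJW and control diets. The SJW-diet call was lost without SJW tumour 2, SJW AOM array 1 or SJW AOM array 2 (adjusted p = 0.107, 0.0697 and 0.0706). A dimmer Krt2 probe, not well above background on all arrays, changed by 0.27 ± 0.17 on the SJW diet and did not pass (limma adjusted p = 0.252 over probes). Krt4, the oesophageal type II partner of Krt13, rose on the control diet, where it stood at 0.61, 0.52 and 1.11 in tumours, against 0.02, 0.07 and -0.36 in non-tumour tissue (0.83 ± 0.20, limma adjusted p = 0.00534). On the SJW diet it stood at -0.01, 0.56 and 0.78 in tumours, against -0.06, 0.10 and -0.33 in non-tumour tissue (0.54 ± 0.20, limma adjusted p = 0.0622). Krt17, a keratin of hair follicles and wounded skin, stood at 0.75, 0.10 and 0.28 in control tumours, against -0.13, 0.08 and -0.56 in control tissue after AOM. It rose on the control diet by 0.58 ± 0.19 (limma adjusted p = 0.028) and changed by 0.36 ± 0.19 on the SJW diet (limma adjusted p = 0.173). For Krt4 and Krt17 most of the ratio's change lay in the pool channel: on the control diet the green signal was 0.70 and 0.56 lower in tumours, while the red channel alone gave 0.23 and 0.17 and neither passed (adjusted p = 0.504 and 0.731).

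A further pair of squamous keratins fell by the test, Krt12 on the control diet and Krt6b on the SJW diet. Krt12, the type I keratin of the cornea, stood at 0.20, 0.03 and 0.06 in control tumours, against 1.15, 1.43 and 1.01 in control tissue after AOM (-1.10 ± 0.26, 2.15-fold lower, limma adjusted p = 0.00498). On the SJW diet it stood at 0.27, 0.52 and 0.26 in tumours, against 0.91, 0.54 and 0.99 in non-tumour tissue, and did not pass (-0.46 ± 0.26, limma adjusted p = 0.210). Krt6b, a keratin induced in stressed skin, stood at -0.78, -0.49 and -0.51 in SJW tumours, against 0.17, 0.08 and 0.41 in SJW tissue after AOM (-0.81 ± 0.26, 1.76-fold lower, limma adjusted p = 0.0332), and this call was lost on leaving out any 1 of the 6 arrays. Its close copy Krt6a, which may share signal with it, changed by -0.01 ± 0.29 on that diet. On the control diet Krt6b stood at 0.22, -0.31 and -0.42 in tumours, against -0.03, -0.73 and 0.26 in non-tumour tissue. Its mean there was -0.17 in both tissues. Krt78 was at 4.16 on SJW tumour 2 and between -0.94 and 0.26 on the other 17 arrays, so its mean change of 1.30 ± 0.76 rests on that array. Over all genes 9.18% rose and 15.4% fell in tumours on the SJW diet, and 12.7% rose and 19.3% fell on the control diet. Of 12 measured genes of squamous epithelium other than keratins, 0 rose and 4 fell on the SJW diet, and 1 rose and 2 fell on the control diet. Perp, Dsg3 and Pkp1 are in this list and in that of filament anchors. Trp63, which encodes the squamous factor p63, was not well above background on all arrays of any group.

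Some hair keratins varied widely among tumours. Krt36, a type I keratin of hair and tongue papillae, stood at 0.27, 3.95 and 4.23 in SJW tumours, against 1.24, 1.73 and 1.64 in SJW tissue after AOM. In control tumours it stood at 3.66, 2.66 and 3.83, against 1.70, 3.36 and 1.84 in control tissue after AOM. SJW tumour 1 lay below every non-tumour array of its diet, and control AOM array 2 reached into the range of the tumours. The changes of 1.28 ± 0.74 and 1.08 ± 0.74 on the SJW and control diets did not pass (limma adjusted p = 0.22 and 0.28). Without SJW tumour 1 the SJW-diet change was 2.55 and passed (limma adjusted p = 0.001). The same array was the lowest of the 6 tumours for Krt15 (-1.14), Krt33b (-0.47), Krt35 (0.49), Krt4 (-0.01) and Krt84 (0.39), and control AOM array 2 was the highest of its group for Krt36 (3.36), Krt15 (1.54), Krt84 (2.86), Krt35 (1.15) and Krt90 (1.40).

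Krt71, the type II keratin of the hair inner root sheath, was the 1 member of its class that passed. It stood at 0.51, 0.68 and 0.78 in SJW tumours, against 1.37, 1.21 and 1.55 in SJW tissue after AOM, and at 0.81, 1.05 and 1.17 in control tumours, against 1.68, 2.15 and 1.69 in control tissue after AOM. It fell by 0.72 ± 0.18 (1.65-fold, limma adjusted p = 0.00742) and 0.83 ± 0.18 (1.78-fold, limma adjusted p = 0.00219) on the SJW and control diets. With arrays centred on their median these calls were lost (limma adjusted p = 0.281 and 0.149). Of the 8 measured genes of hair follicle and skin outside the keratin family, 2 rose and 0 fell on the SJW diet, and 2 rose and 1 fell on the control diet. The shares of all genes that rose and fell were 9.18% and 15.4% on the SJW diet, and 12.7% and 19.3% on the control diet. Lef1, a Wnt-responsive factor active in hair buds and other tissues, rose by 1.95 ± 0.28 and 1.49 ± 0.28.

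**Figure D4:**
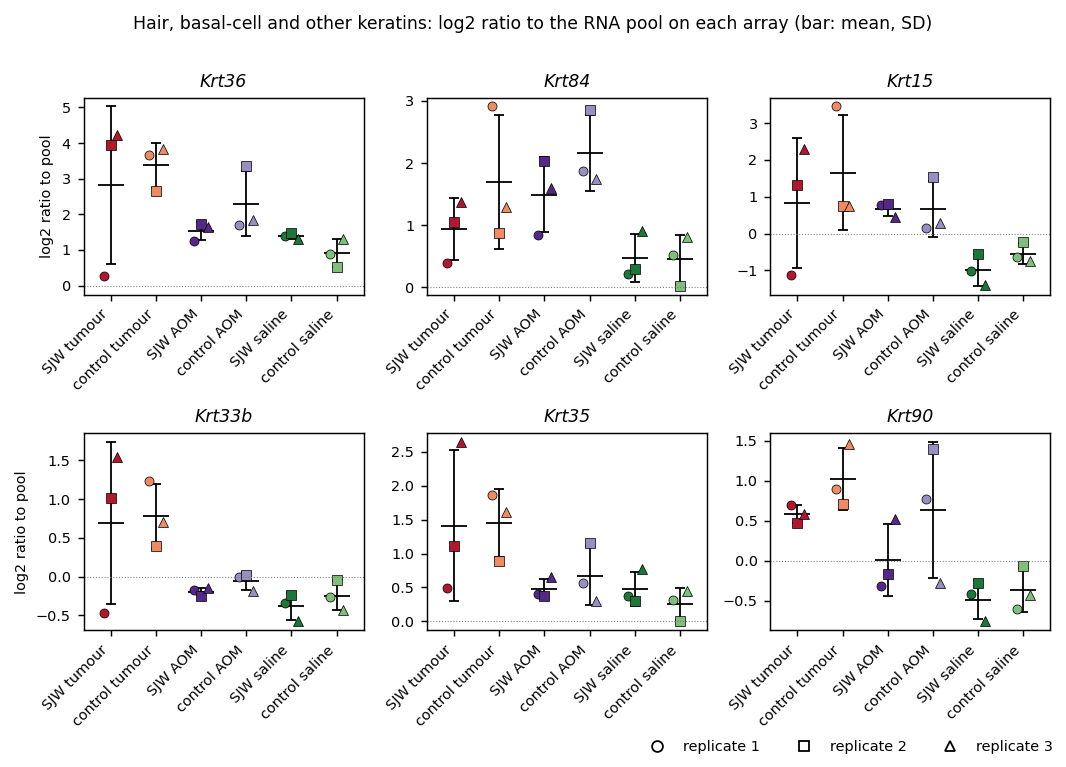
Log2 ratio of sample over pool on each array for 6 keratins of hair, basal cells and other classes, with the mean and SD of 3 arrays. SJW tumour 1 is the lowest tumour array for Krt36, Krt84, Krt15, Krt33b and Krt35, and not for Krt90.

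Against tissue from saline mice, a comparison added after the data were seen, more keratins passed: 20 on the SJW diet (7 higher, 13 lower), where 36.2% of all genes were called (13.7% higher, 22.5% lower), and 16 on the control diet (10 higher, 6 lower), where 32.9% were called (13.2% higher, 19.6% lower). Tumour values are the same as above, and the 2 comparisons of a diet share them. Krt23 was 12.0-fold higher in SJW tumours than in SJW tissue after saline, where it stood at 0.97, -0.22 and 1.26 (3.58 ± 0.41, limma adjusted p = 8.78e-06). It was 11.9-fold higher in control tumours than in control tissue after saline, where it stood at 0.04, 0.04 and 0.68 (3.57 ± 0.41, limma adjusted p = 1.06e-05). Krt8 fell by 1.62 ± 0.22 and 1.71 ± 0.22 on the SJW and control diets, and Krt7 rose by 1.11 ± 0.18 and 1.01 ± 0.18. Hair and basal keratins also passed: on the control diet Krt36 (0.90, 0.53 and 1.32 after saline) rose by 2.47 ± 0.74 and Krt15, a keratin of basal cells and hair bulge stem cells (-0.65, -0.22 and -0.76 after saline), by 2.20 ± 0.74. A dimmer Krt36 probe rose by 3.62 ± 0.82 on the control diet (12.3-fold, limma adjusted p = 0.00311 over probes) and by 2.60 ± 0.82 on the SJW diet (6.08-fold, limma adjusted p = 0.0199 over probes), where the brighter probe changed by 1.42 ± 0.74 and did not pass (limma adjusted p = 0.147). Without control tumour 1 both calls by the brighter probes were lost, Krt36 narrowly (2.33, limma adjusted p = 0.0505) and Krt15, which stood at 3.45 there, clearly (1.30, limma adjusted p = 0.163). The Krt36 call was also lost without control tumour 3 or control saline array 2 (limma adjusted p = 0.0633 and 0.0565). That of Krt15 was also lost without any 1 of the control saline arrays (limma adjusted p = 0.0503 to 0.0788).

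Krt33b and Krt90 rose on both diets in that comparison. Krt33b, a type I keratin of the hair shaft, rose by 1.08 ± 0.35 on the SJW diet and 1.02 ± 0.35 on the control diet, and Krt90, a type II keratin, by 1.06 ± 0.33 and 1.39 ± 0.33. The Krt33b call was lost in 3 of 16 other settings on the SJW diet and 4 of 16 on the control diet, each a left-out array. That of Krt90 was lost in 2 of 16 on the SJW diet. A Krt33b probe too dim to be kept did not rise. It averaged -0.02 in SJW tumours and 0.12 in control tumours, against 0.70 and 0.26 after saline. Krt35, a hair matrix keratin, rose by 1.20 ± 0.40 on the control diet, a call lost in 7 of 15 other settings. On the SJW diet the 13 that fell included 3 hair shaft keratins, Krt31 (-1.09 ± 0.28), Krt34 (-0.62 ± 0.21) and Krt82. For Krt31 most of the change lay in the pool channel, where the green signal was 0.74 higher in SJW tumours. The red channel alone gave -0.25 for it and did not pass (limma adjusted p = 0.577). Krt82 fell by 0.99 ± 0.25 (limma adjusted p = 0.00561) and was not well above background on any of the 3 SJW tumour arrays. From red signals alone, with the dimmest signals well above background as a floor, it was at least 2.13-fold lower in SJW tumours than in SJW tissue after saline. That bound is on another scale than the ratio to the pool. Krt14 fell by 3.14 ± 1.05 (8.80-fold, limma adjusted p = 0.0288), with levels of -0.57, 1.10 and 0.48 in SJW tumours, against 2.08, 3.73 and 4.62 in SJW tissue after saline. The Krt14 call was lost without SJW tumour 1 or 3 or SJW saline array 2 or 3 (changes of -2.57 to -3.21, limma adjusted p = 0.06 to 0.118). Krt71 fell by 1.45 ± 0.18 and Krt12 by 1.15 ± 0.26 there. Krt19 and Krt20 fell by 1.01 ± 0.21 and 1.05 ± 0.38, and Krt9, Krt13, Krt26 and Krt79 by 0.52 to 0.58. The Krt20 call was lost in 9 of 15 other settings. The direction of Krt26 depended on the channel: from red alone it was 1.21 higher in SJW tumours (limma adjusted p = 0.0213), and its call was lost in 10 of 16 other settings. For Krt13 the dimmer probe changed by -0.02 ± 0.54, and the mean over its probes by -0.30 (limma adjusted p = 0.506). Krt2, Krt4 and Krt17 rose by 0.62 ± 0.18, 0.60 ± 0.20 and 0.79 ± 0.19 on the SJW diet and by 0.55 ± 0.18, 0.89 ± 0.20 and 0.60 ± 0.19 on the control diet. From the red channel alone Krt4 and Krt17 did not pass on the SJW diet (limma adjusted p = 0.0958 and 0.238) or the control diet (0.158 and 0.487). Of 16 other settings, the Krt2 call was lost in 3 on the SJW diet and 6 on the control diet. The Krt4 call was lost in 6 and 1 of them, and the Krt17 call in 1 and 4. On the control diet Krt19, Krt20 and Krt71 fell by 1.08 ± 0.21, 1.31 ± 0.38 and 0.84 ± 0.18, and Krt10 and Krt13 by 0.33 ± 0.12 and 0.54 ± 0.18. That change of Krt13 turned to 0.07 with arrays centred on their median. The Krt10 call was lost in 10 of 16 other settings.

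**Figure D5:**
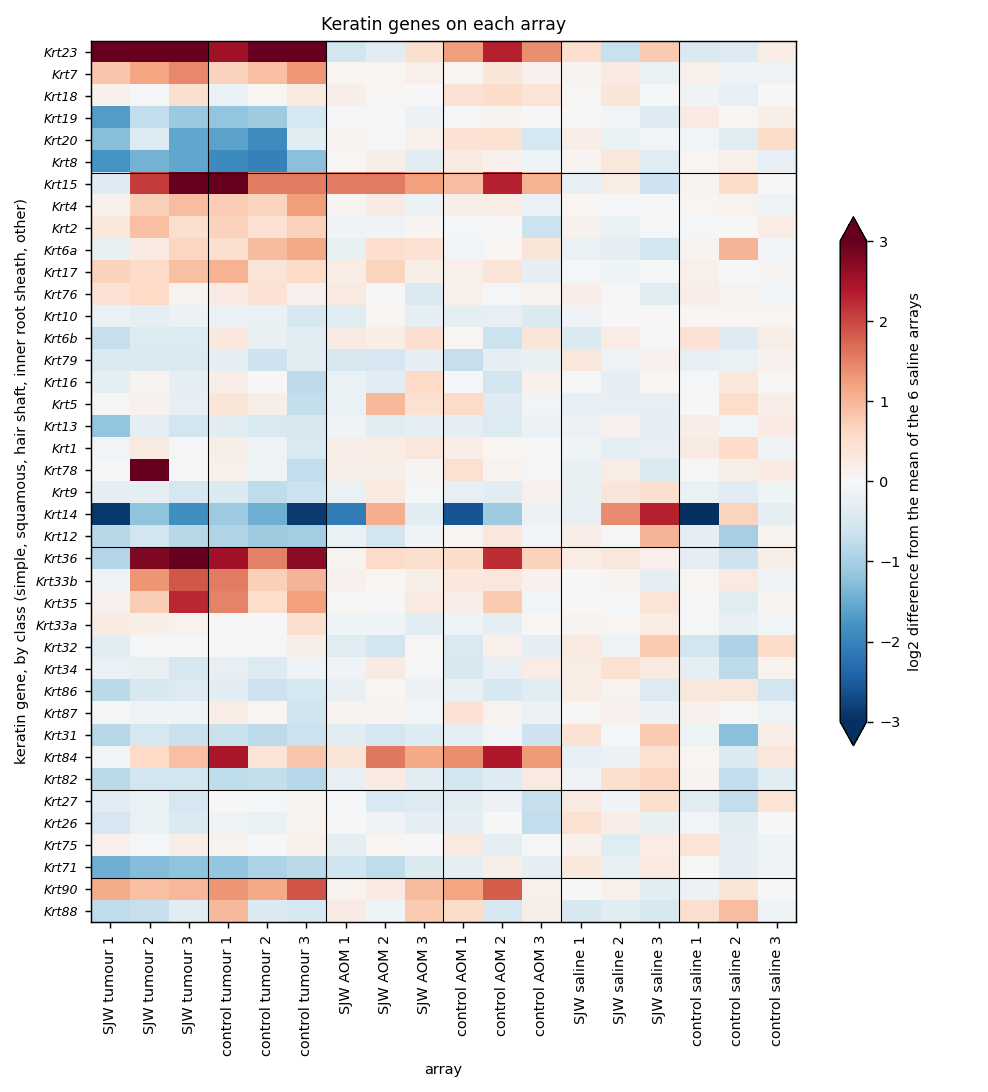
Difference of each of the 40 keratins on each array from that gene's mean over the 6 saline arrays (log2; colours stop at 3 in both directions), grouped by class. Krt23 is high on all 6 tumour arrays and on the control AOM arrays, Krt8, Krt19 and Krt71 are low on all 6 tumour arrays, and Krt14 varies within groups.

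In non-tumour tissue no keratin passed for AOM against saline on either diet in limma by its brightest probe, while 1.14% of all genes were called on the SJW diet (0.656% higher, 0.479% lower) and 0.583% on the control diet (0.456% higher, 0.127% lower). At an unadjusted p under 0.05 there were 11 of 40 keratins on the SJW diet and 6 on the control diet, against 19.3% and 13.6% of all genes. A dimmer probe of Krt7 did pass on the control diet (0.64, 0.91 and 0.51 after AOM, against -0.09, -0.24 and 0.01 after saline; 0.79 ± 0.17, limma adjusted p = 0.0388 over probes), whereas the brighter one stood at -0.04, 0.25 and 0.03 after AOM, against 0.06, -0.25 and -0.25 after saline. Krt23 came nearest among the probes used for genes on the control diet, at 1.72, 2.79 and 1.86 after AOM, against 0.04, 0.04 and 0.68 after saline (1.87 ± 0.41, 3.65-fold, limma adjusted p = 0.0511). Its groups did not overlap, the difference was positive on each of the 3 slides (1.68, 2.75 and 1.18), and it passed in 6 of 16 other settings, with adjusted p from 0.00696 to 0.174. On the SJW diet Krt23 stood at -0.09, 0.14 and 0.95 after AOM, against 0.97, -0.22 and 1.26 after saline (-0.34 ± 0.41, limma adjusted p = 0.676). The difference between these changes was -2.20 ± 0.58, with an unadjusted p of 0.00168 and an adjusted p of 0.476 (range 0.152 to 0.997 over 22 settings). No keratin was called in that comparison of changes, in which 0% of all genes were called. An unadjusted p under 0.05 was found there for 6 of 40 keratins and 9.34% of all genes.

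Krt84, a type II keratin of hair and tongue papillae, stood at 0.84, 2.04 and 1.60 in SJW tissue after AOM, against 0.22, 0.29 and 0.91 after saline, and at 1.87, 2.86 and 1.74 in control tissue after AOM, against 0.52, 0.03 and 0.81 after saline. The changes were 1.02 ± 0.46 and 1.70 ± 0.46 (limma adjusted p = 0.244 and 0.0977). In the mean of both diets, added after the data were seen, it rose by 1.36 ± 0.33 (2.57-fold, limma adjusted p = 0.0257, range 0.00926 to 0.0773) and was the 1 keratin called by its brightest probe, where 5.57% of all genes were called (3.28% higher, 2.30% lower). The dimmer Krt7 probe passed there too (0.58 ± 0.12, limma adjusted p = 0.0109 over probes). In the same comparison 12 of 13 smooth muscle genes and 8 of 9 stroma genes rose, with median changes of 1.56 and 1.29. Their part in the Krt84 change was not tested. All 6 within-slide differences were positive, from 0.62 to 2.83. Krt15 was higher after AOM on every slide of both diets too (by 0.80 to 1.86), but its mean change of 1.43 ± 0.53 did not pass (limma adjusted p = 0.124).

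For SJW against the control diet limma called no keratin, and 0% of all genes, in saline tissue, AOM tissue or tumours. Of the 40 keratins, those with an unadjusted p under 0.05 numbered 9, 3 and 2 there, against 10.7%, 3.18% and 6.00% of all genes. Krt8 differed between diets by 0.13 ± 0.22 in tumours, -0.13 ± 0.22 in AOM tissue and 0.04 ± 0.22 in saline tissue. The smallest unadjusted p belonged to Krt23 after AOM, where SJW tissue stood at -0.09, 0.14 and 0.95 and control tissue at 1.72, 2.79 and 1.86 (-1.79 ± 0.41, unadjusted p = 0.000525, limma adjusted p = 1). It was lower on the SJW diet on each of the 3 slides, with differences of -1.80, -2.65 and -0.91. No keratin was called for a diet difference of the tumour change, and 0% of all genes were. An unadjusted p under 0.05 was found there for 3 of 40 keratins and 4.14% of all genes.

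Genes that anchor keratin filaments moved in both directions in tumours. Of 23 listed desmosome, plakin and hemidesmosome genes 21 were measured. On the SJW diet 2 rose and 3 fell, where 9.18% of all genes rose and 15.4% fell. On the control diet 3 rose and 7 fell, where 12.7% of all genes rose and 19.3% fell. The median changes of the 21 were -0.16 and -0.41. Plec, which encodes plectin, a linker of filaments to hemidesmosomes, averaged -0.10 ± 0.44 in SJW tumours, against 0.81 ± 0.07 in SJW tissue after AOM, and -0.15 ± 0.18 in control tumours, against 1.02 ± 0.04 in control tissue after AOM (SD, n = 3). It fell by 0.91 ± 0.19 and 1.16 ± 0.19 on the SJW and control diets. Perp, which encodes a desmosomal membrane protein, fell by 1.10 ± 0.16 and 1.56 ± 0.16. Pkp2, which encodes a desmosomal plaque protein, fell by 0.58 ± 0.19 and 0.88 ± 0.19. Dst, which encodes the linker dystonin, fell by 1.26 ± 0.20 on the control diet and changed by -0.46 ± 0.20 on the SJW diet (limma adjusted p = 0.113). Ppl, which encodes periplakin, rose by 1.06 ± 0.20 and 0.71 ± 0.20, and Dsg4, a desmoglein of hair, rose by 0.76 ± 0.23 and 1.07 ± 0.23. Dsg4 was not well above background on the SJW AOM arrays, so that its SJW-diet ratio there is uncertain. Dsg3, a desmoglein of squamous tissue, rose by 0.76 ± 0.23 on the control diet and changed by 0.06 ± 0.23 on the SJW diet (limma adjusted p = 0.878). No gene of this list passed in either AOM comparison in limma.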

How the data were processed

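The 18 2-colour arrays of 45018 spots were read with Agilent Feature Extraction 10.10.1.1, per the file headers. The deposited intensity values are the median signal and local background of each spot in both channels, per the file headers; the design planned the mean signal, which is not among the columns used here. The deposited log10 ratio is the software's own red over green, per the file headers. The deposited log2 values match that ratio on each array (slope and r of 1), so scale and direction are settled. Their columns are not centred, with medians for replicates 1 to 3 of 0.182, 0.125 and 0.156 (SJW tumour), 0.157, 0.125 and 0.342 (control tumour), 0.110, 0.129 and -0.031 (SJW AOM), 0.103, 0.206 and 0.053 (control AOM), 0.228, 0.148 and 0.148 (SJW saline) and 0.160, 0.207 and 0.152 (control saline).

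Background was corrected with normexp (offset 50) and ratios normalized by loess within arrays, with the 1639 control spots at weight 0; population outliers were dropped. A probe was kept where all 3 arrays of some group had it well above background in the sample channel (34081 of 41174), and the brightest kept probe stood for a gene. Values called over probes are from the same model on all 34081 kept probes. Symbols came from RefSeq (GRCm38.p6) by accession: 27050 probes had a symbol and 14124 none. Groups came from the labels. Limma 3.58.1 in R 4.3.3 fitted 6 group means with 12 residual degrees of freedom; 9 comparisons were planned and 3 added after seeing the data. The fit was tested on simulated data. Full values are given for simple keratins and for keratins that passed a planned test; others by range or as named after their values were seen. The keratins, their classes and the other gene lists were chosen with earlier results of these data known. The array number limits the precision, and p-values measure only the spread between these samples.

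Replicate numbers are not stated to mark shared animals. Same-numbered arrays of the non-tumour groups share a slide. Deviations of same-numbered arrays correlated above 0.1 in all 3 pairs for SJW against control after saline alone (0.17, 0.41 and 0.36). A replicate block called 0 keratins in it.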

Additional observations from a re-analysis of the deposited data

How the results depend on the processing

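Each tumour call of Krt8 and Krt23 against non-tumour tissue held in all 16 other settings. In tumours against non-tumour tissue on the SJW diet 8 keratins were called, against 14 from the red channel alone. Centring arrays on their median in place of loess moved the median change of all genes in tumours by 0.16 on both diets, and the calls to 5 higher and 2 lower on the SJW diet and 9 higher and 4 lower on the control diet. For AOM against saline on the control diet (0 keratins called), median centring, the replicate block, reference brightness as a covariate and a filter on all 18 arrays gave 1 keratin each, and the scanner's own ratio and the deposited table gave 2 each. The all-array filter gave 1 on the SJW diet too. In the mean of both diets (1 called) the scanner's ratio gave 4, the deposited values 3, brightness as a covariate 3 and the all-array filter 2. The causes were not tested.

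Leaving out 1 array gave 0 to 1 keratins for AOM against saline on each diet, 5 to 10 for tumours against non-tumour tissue on the SJW diet (5 without SJW AOM array 2) and 8 to 11 on the control diet, 13 to 19 and 10 to 14 for tumours against saline (13 without SJW saline array 2; 10 without control tumour 1, control tumour 3 or control saline 1), 0 to 3 in the AOM mean and 0 to 0 elsewhere. Directions turned in 4 of 1112 gene values: Krt18 in SJW tumours against non-tumour tissue (-0.11 from the red channel alone, -0.03 to 0.22 on leaving out 1 array, the lowest without SJW tumour 3), Krt13 in control tumours against saline (0.07 with median centring) and Krt26 in SJW tumours against saline (1.21 from the red channel alone). Of the rest, 937 kept direction and call, 157 lost the call and 14 gained it. The replicate block gave 1 keratin for AOM against saline on the control diet. Same-numbered arrays share a slide there, and their deviations correlated at 0.06, -0.35 and -0.18. Krt18 in control tumours did not pass under the replicate block (limma adjusted p = 0.0582). The deposited table lacks the Krt6b, Krt7, Krt14, Krt18, Krt19 and Krt20 probes and tests 22964 genes.

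Counts over all genes moved more. For AOM against saline on the SJW diet 296 genes were called, against 139 with median centring, 88 by the scanner's ratio, 66 in the deposited values, 8 from the red channel alone, 7 with brightness as a covariate and 0 to 600 on leaving out 1 array. On the control diet 152 were called, against 280, 389, 335, 164 and 246 in the same settings, 266 with the all-array filter and 11 to 191 on leaving out 1 array. In the mean of both diets 1453 were called, against 906 with median centring, 2783 by the scanner's ratio and 2234 in the deposited values. In SJW tumours against non-tumour tissue 6416 were called, against 3985 with median centring. For SJW against control after saline 0 were called, against 71 with slide as a fixed block and 2 each by the scanner's ratio and in the deposited values, and 0 to 291 on leaving out 1 array.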
